A study of Mus musculus with 20 samples.

Results

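The genes described here are 10 genes of the pericentral liver zone, Glul, Oat, Lect2, Slc1a2, Axin2, Tbx3, Lgr5, Rhbg, Gulo and Rgn, taken by symbol from the 55642 genes of the deposited files. All 10 were found under 1 gene identifier each, and all 10 passed the filter on low counts in liver, where 26945 genes had a read and 14559 were tested. Livers and kidneys came from adult male DBA/2J mice, an inbred strain. JQ1, a small molecule that displaces the BET bromodomain proteins from acetylated histones, was injected intraperitoneally each day for 3 weeks at 50 mg/kg, and controls received vehicle over the same period. Mice aged 10 weeks gave liver when dosing ended (3 JQ1 mice, treatment, T, and 3 vehicle mice, VC-T), and mice aged 16 weeks gave it 6 weeks after dosing (3 JQ1 mice, recovery, R, and 1 vehicle mouse, VC-R). Kidney had the same numbers. The 4 vehicle libraries of an organ served as 1 control group, so R mice were older than 3 of their 4 controls, and age and recovery cannot be told apart there. The labels call all 4 controls vehicle, whereas the series' design text also speaks of untreated animals, and the labels were followed. The supplement's methods split the controls between the time points as the labels do. The legend of a supplementary figure gives the reverse split and a 3-week recovery. Values against VC-T or VC-R alone therefore rest on the labels. No source used here ties the libraries to separate animals in so many words. The p-values set group differences against the spread between these libraries.

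Hepatocytes along the liver lobule differ in what they make. Those around the central vein receive Wnt proteins and R-spondin from the neighbouring endothelium, and the resulting β-catenin activity keeps up glutamine synthesis, ammonia uptake and much of drug metabolism there. Those around the portal vein carry urea synthesis and gluconeogenesis instead. A bulk liver library mixes all zones, so the values below say how much RNA of a pericentral gene the organ held and not where it lay. Fewer cells of a type and less RNA per cell cannot be told apart in such libraries.

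Liver libraries held 11968500 to 17529910 assigned reads and kidney libraries 13952510 to 26895318. R replicates 2 and 3 stood apart from the other 8 liver libraries, since they carried kidney RNA. Of 16 kidney markers fixed for this check, Cyp2j5 is also made by liver (463 to 886 CPM in liver libraries, where CPM are counts scaled to a common library size). The other 15 summed to 6587 CPM in R replicate 2 and 3150 CPM in R replicate 3. In the remaining 8 liver libraries their sum was 0.552 to 26.5 CPM, and in kidney controls 20459 to 30219 CPM. Kap, an androgen-regulated protein of the kidney tubule, stood at 3541 and 2138 CPM in R replicates 2 and 3 and at 0.146 to 20.4 CPM in the others. The median marker reached 35.1% of its kidney control level in R replicate 2 and 12.8% in R replicate 3, against at most 0.0521% elsewhere, and no marker was at 0 in either library. Both libraries are therefore shown apart, and the counts of pericentral genes called are also given without them.

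The 10 genes covered a wide range of levels in control liver. Measured per transcript length, in deposited TPM (a share of transcripts that corrects for length), Rgn was the most abundant at 171.0 ± 12.0 (SD, n = 4), followed by Gulo at 110.1 ± 14.8, Glul at 95.3 ± 12.4, Lect2 at 47.9 ± 5.4 and Oat at 29.8 ± 5.9. Slc1a2 (3.93 ± 1.08 TPM), Tbx3 (3.30 ± 0.79) and Rhbg (2.95 ± 0.29) lay lower, and Axin2 (0.794 ± 0.389) and Lgr5 (0.754 ± 0.567) lowest. The control libraries of Gulo and Glul overlapped in TPM, as did those of Slc1a2, Tbx3 and Rhbg and those of Axin2 and Lgr5, while the other neighbours in this order did not. Axin2 rested on 23 to 56 reads per liver library and Lgr5 on 33 to 81, the fewest of the 10.

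The same genes differed in how far they are shared with kidney. Control kidney held 0.127% of the liver TPM of Gulo, 0.198% of that of Lect2 and 0.971% of that of Rgn. Slc1a2 (18.9%), Axin2 (32.9%), Lgr5 (35.5%) and Tbx3 (40.9%) were lower in kidney by less. Oat (92.8%), Glul (106.6%) and Rhbg (381.1%) were highest in kidney relative to liver. On CPM without scaling factors these 3 stood at 60.2%, 69.2% and 247.0%, so the ratios depend on the scale.

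Promoters of 5 of the 10 genes (Glul, Oat, Lect2, Slc1a2 and Axin2) were in the RefSeq promoter table (GRCm38.p6), and the 250 bases before the start were searched on both strands for the core of the TCF/LEF motif, CTTTGAT or CTTTGAA. TCF/LEF factors carry β-catenin to DNA. Lect2 and Slc1a2 held 1 match each, and Glul, Oat and Axin2 held none, against 2333 of all 27025 genes with a promoter there (8.63%). The 2 windows with a match are shown because one of them belongs to Lect2, the gene with the largest fall described below. The motif is in capitals and reads ATCAAAG, its reverse complement, at -32 from the start in Lect2 (chr13:56548539-56548788, minus strand) and at -207 in Slc1a2 (chr2:102706188-102706437, plus strand).
Lect2: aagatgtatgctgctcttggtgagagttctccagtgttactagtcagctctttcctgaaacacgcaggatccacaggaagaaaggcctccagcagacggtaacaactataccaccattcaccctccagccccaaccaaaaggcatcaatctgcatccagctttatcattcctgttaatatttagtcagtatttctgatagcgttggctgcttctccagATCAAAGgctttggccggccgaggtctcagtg
Slc1a2: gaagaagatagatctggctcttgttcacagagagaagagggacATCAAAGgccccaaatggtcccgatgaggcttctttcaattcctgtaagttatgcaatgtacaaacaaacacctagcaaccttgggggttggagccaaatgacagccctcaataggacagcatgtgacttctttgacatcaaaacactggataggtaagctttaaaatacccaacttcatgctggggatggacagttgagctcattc
A match describes letters in this window and says nothing about binding. The other 5 genes are named only.

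At the end of JQ1 dosing, Lect2 was the gene of the 10 that fell, and Rhbg and Gulo were the next furthest below control. Over all genes 72 of 14559 passed the test, 0.495%, and 33 of them, 0.227%, were lower (edgeR quasi-likelihood test on all 10 liver libraries, Benjamini-Hochberg adjusted p below 0.05). Among the 10 pericentral genes 1 was called, and 3 had an unadjusted p below 0.05. The log2 fold change was below 0 for 9 of 10, with a median of -0.25, against 49.7% below 0 and a median of 0.00 over all genes tested. Every T library lay below every control library for 5 of 10 (Lect2, Rhbg, Gulo, Glul and Rgn), which held for 6.13% of all genes tested. Glul and Rgn overlapped with control in deposited TPM, which left 3, while CPM without TMM factors, which adjust for library composition, added Slc1a2.

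Lect2 (ENSMUSG00000021539) encodes a protein that hepatocytes secrete into blood. In T livers its level was 24.6, 31.6 and 27.0 CPM. In the VC-T livers it was 54.2, 61.2 and 65.3 CPM and in the VC-R liver 63.9 CPM. The groups were far apart, with no T library near the lowest control. The group means were 27.7 ± 3.6 CPM (SD, n = 3) and 61.1 ± 4.9 CPM (n = 4), and the log2 fold change was -1.14 ± 0.16 (SE, edgeR adjusted p = 0.00633). Against the 3 VC-T livers alone it was -1.12 ± 0.18 (adjusted p = 0.0312). The call was lost without T replicate 1 (-1.06, adjusted p = 0.0789) or T replicate 3 (-1.12, adjusted p = 0.0834).

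Rhbg (ENSMUSG00000104445), a membrane channel for ammonia, stood at 5.14, 7.74 and 6.49 CPM in T livers. The 4 controls were tightly grouped, at 11.2, 11.1 and 10.9 CPM in VC-T and 10.1 CPM in VC-R. All T libraries were below all controls, on 71 to 97 reads per T library. The log2 fold change of -0.75 ± 0.17 missed the threshold with all 10 libraries in the fit (adjusted p = 0.0742). It passed in the fit without R replicates 2 and 3 (-0.76 ± 0.17, adjusted p = 0.0197).

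Gulo (ENSMUSG00000034450) encodes L-gulonolactone oxidase, which carries out the last step of vitamin C synthesis in mice. T livers held 297.0, 340.5 and 311.9 CPM. Controls held 464.8, 505.4 and 449.4 CPM in VC-T and 501.4 CPM in VC-R, again without overlap. The log2 fold change was -0.60 ± 0.18 (adjusted p = 0.204), and -0.61 ± 0.09 (adjusted p = 0.000306) without R replicates 2 and 3. Rgn (ENSMUSG00000023070), regucalcin, acts 1 step earlier in the same synthesis as a lactonase. Its T livers were at 420.7, 441.8 and 468.8 CPM and its controls at 478.0, 469.4, 535.1 and, in VC-R, 541.0 CPM. The highest T library and the lowest control were nearly equal, and the log2 fold change of -0.19 ± 0.14 was not called (adjusted p = 0.760).

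Leaving out R replicates 2 and 3 made 3 of the 10 genes pass, Lect2, Gulo and Rhbg, all lower. In that fit 358 of 15558 genes were called (2.30%), of which 185 were lower (1.19%). The 3 fold changes hardly moved. The SE fell from 0.18 to 0.09 for Gulo and from 0.16 to 0.11 for Lect2, and stayed at 0.17 for Rhbg. The fit of T and control libraries alone called the same 3 genes, where 368 of 13860 genes were called over all (2.66%). DESeq2 on all 10 libraries called Lect2 and Rhbg, where 284 of 14559 genes were called over all (1.95%).

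**Figure D1:**
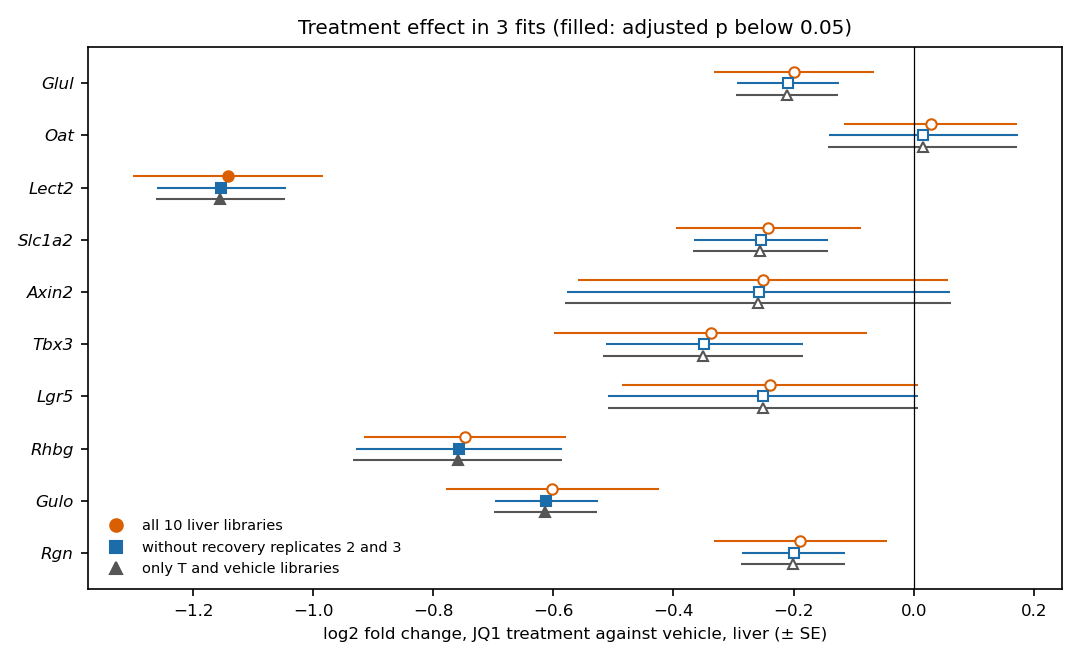
Log2 fold change ± SE of each pericentral gene in liver, JQ1 treatment against vehicle, from 3 edgeR fits that differ in the libraries included (circles, squares and triangles); filled symbols have an adjusted p below 0.05. Lect2 is filled in all 3 fits at -1.14 to -1.15, Rhbg and Gulo are filled in both fits without R replicates 2 and 3, and the other 7 genes are open throughout.

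Among the other genes of nitrogen handling, Glul (ENSMUSG00000026473), glutamine synthetase, joins ammonia to glutamate and is the classic gene of the innermost pericentral hepatocytes. T livers held 420.9, 453.4 and 498.2 CPM, and controls 514.8, 562.4 and 514.3 CPM in VC-T and 508.8 CPM in VC-R. The T libraries were all lower, but by little, and the log2 fold change of -0.20 ± 0.13 was not called (adjusted p = 0.712). Slc1a2 (ENSMUSG00000005089), the glutamate transporter GLT-1, ranged from 39.3 to 44.9 CPM in T and from 44.7 to 61.9 CPM in controls, whose highest value was the VC-R liver. Its groups overlapped narrowly (-0.24 ± 0.15, adjusted p = 0.693). Oat (ENSMUSG00000030934), ornithine aminotransferase, which turns ornithine towards glutamate, was at 101.3 to 152.7 CPM in T and 100.3 to 148.9 CPM in controls. These ranges coincide, and the log2 fold change was 0.03 ± 0.14 (adjusted p = 0.976).

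The members of the Wnt response itself showed small differences with wide errors. Axin2 (ENSMUSG00000000142), a scaffold of β-catenin destruction that Wnt signalling induces, was at 2.75, 1.83 and 2.82 CPM in T and 1.91 to 4.05 CPM in controls. Tbx3 (ENSMUSG00000018604), a T-box transcription factor and Wnt target, was at 21.0, 22.1 and 26.8 CPM in T and 22.7 to 36.7 CPM in controls. Lgr5 (ENSMUSG00000020140), a receptor for R-spondins, was at 3.55, 2.63 and 3.75 CPM in T and 3.34 to 4.69 CPM in controls. The groups of all 3 genes overlapped. Their log2 fold changes were -0.25 ± 0.31, -0.34 ± 0.26 and -0.24 ± 0.25 and were not called (adjusted p = 0.872, 0.764 and 0.842).

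**Figure D2:**
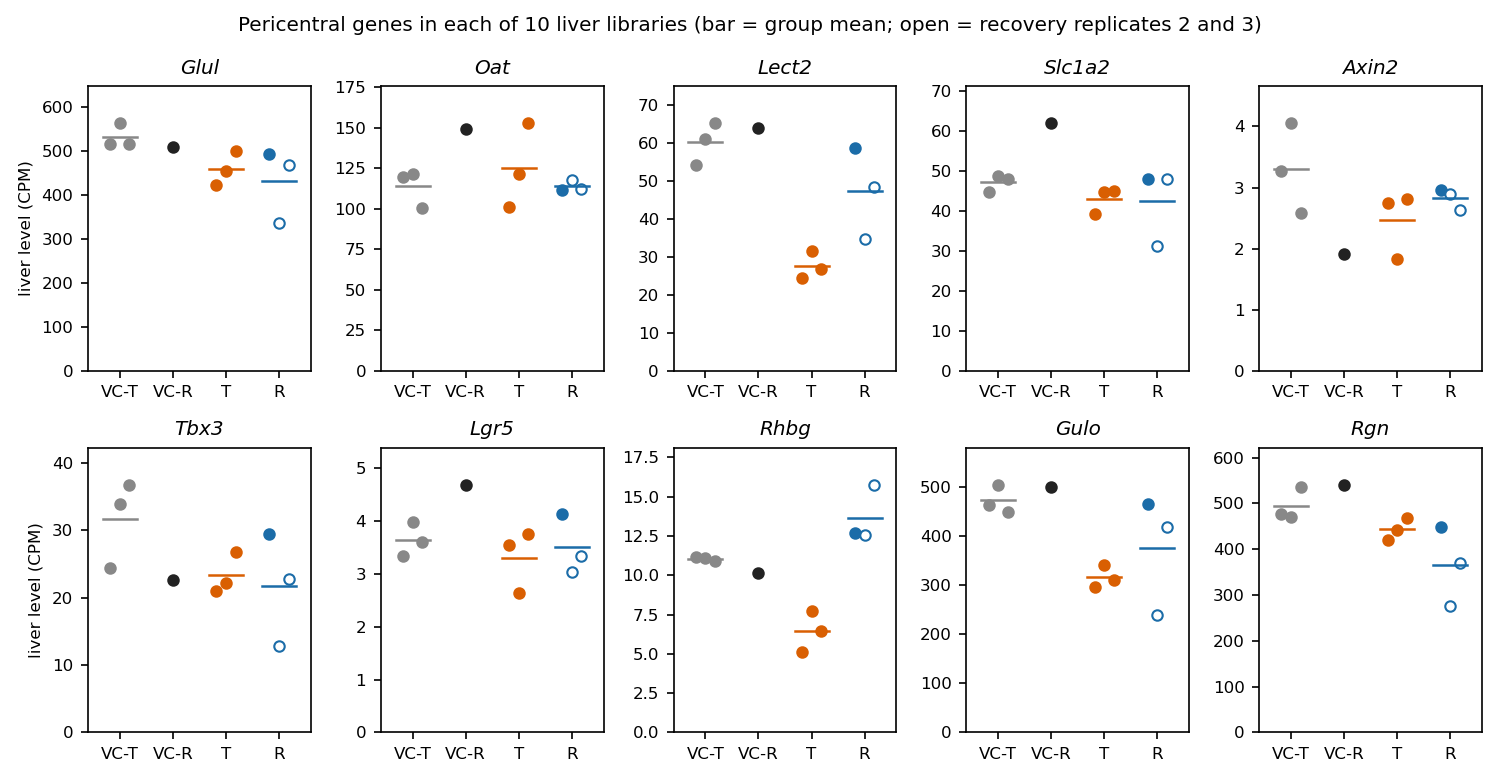
Level of each pericentral gene in CPM (axes from 0) in the liver libraries of vehicle at the treatment time (VC-T), vehicle at the recovery time (VC-R), JQ1 treatment (T) and JQ1 recovery (R); each point is 1 library, bars are group means, and open points are R replicates 2 and 3. T livers lie below all controls for Lect2, Rhbg and Gulo by the widest gaps, and R replicate 2 is the lowest R point for 8 of the genes, with the exceptions of Oat and Axin2.

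The wider pericentral programme moved in part. Of 30 other pericentral genes measured, 1 fell and 1 rose, the latter being the carboxylesterase Ces1d (0.63 ± 0.12, adjusted p = 0.0392). The median log2 fold change of the 30 was -0.21, with 21 below 0. Cyp2e1, the cytochrome P450 that oxidises ethanol, was at 1120 to 1285 CPM in T livers and 1780 to 2141 CPM in controls, without overlap, and was not called (-0.70 ± 0.17, adjusted p = 0.111). Cyp1a2 was at -0.38 ± 0.25 (adjusted p = 0.715). Ces1d, the Cyp2c genes and Cyp2e1 belong to families with near-identical copies between which reads may be divided.

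Without R replicates 2 and 3, an alternative applied to these lists after the data were seen, 10 of the 30 fell and 1, Ces1d, rose, set against the 2.30% of all genes given above. By adjusted p the falls of Nr1i3, the constitutive androstane receptor (-1.09 ± 0.14, adjusted p = 0.000103), Cyp2e1 (-0.71 ± 0.09, adjusted p = 0.000108) and Cyp2c50 (-0.85 ± 0.11, adjusted p = 0.000243) came first, and the largest were those of Slc13a3 (-1.54 ± 0.30, adjusted p = 0.00697) and Cyp2c37 (-1.15 ± 0.18, adjusted p = 0.0139). DESeq2 with all 10 libraries called 9 of the 30 lower and 1 higher, set against 1.95% of all genes.

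Periportal genes had the other sign on balance, with a median of 0.14 and 9 of 23 below 0. Fbp1, fructose bisphosphatase of gluconeogenesis, was the periportal gene called, and it rose (0.73 ± 0.11, adjusted p = 0.0105). The urea cycle genes Cps1 (0.29 ± 0.20, adjusted p = 0.712) and Ass1 (0.55 ± 0.16, adjusted p = 0.201) were not called. Without R replicates 2 and 3, 5 of 23 were called, with Fbp1 and Arg1 higher and Hsd17b6 (-1.28 ± 0.10, adjusted p = 3.67e-07), Aldh1b1 and Pigr lower, so called periportal genes went both ways. The difference between the zone lists was not tested.

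Of 38 Wnt pathway genes, edgeR called 0 and DESeq2 called 0, and the unadjusted p was below 0.05 for 1. Rspo3, the endothelial R-spondin, was at 0.23 ± 0.17, Wnt2 at 0.16 ± 0.34, and the membrane ligases Rnf43 and Znrf3, which remove Wnt receptors, at -0.33 ± 0.21 and 0.00 ± 0.24. Wnt9b was at or below 0.472 CPM in each liver library and was not tested. Of 18 genes of glutamate and ammonia metabolism 0 were called by edgeR, with 2 at an unadjusted p below 0.05, and DESeq2 called 0. Without R replicates 2 and 3, 1 was called, Prodh2, which oxidises hydroxyproline, higher (0.40 ± 0.10, adjusted p = 0.0413). Gls2, liver glutaminase, was at 0.06 ± 0.16. Of 9 genes of ascorbate synthesis and transport Ugdh, which makes UDP-glucuronate, rose (0.60 ± 0.12, adjusted p = 0.0394), while Akr1a1, which acts upstream of Rgn, was at -0.07 ± 0.19.

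Markers of liver cell types were followed beside these genes. The summed level of 10 hepatocyte genes was 94317 to 104013 CPM in T livers and 72236 to 78030 CPM in controls, although 0 of the 10 were called by edgeR (4 at an unadjusted p below 0.05, DESeq2 1). Without R replicates 2 and 3, 4 of the 10 were called, all higher (Trf, Serpina1a, Ttr and Apob), and the fit of T and control libraries alone called the same 4. The 10 liver endothelial genes summed to 203.5 to 224.5 CPM in T and 223.0 to 239.6 CPM in controls, and the 7 lymphocyte genes to 0.479 to 0.768 and 1.33 to 2.52 CPM. The lymphocyte sums were near the floor, since 1 of the 7 genes could be tested and 3 were at 0 in all T livers. Sums of stellate, Kupffer, bile duct and red cell genes in T overlapped with those in controls. The part of these cell types in the pericentral values was not tested.

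**Figure D3:**
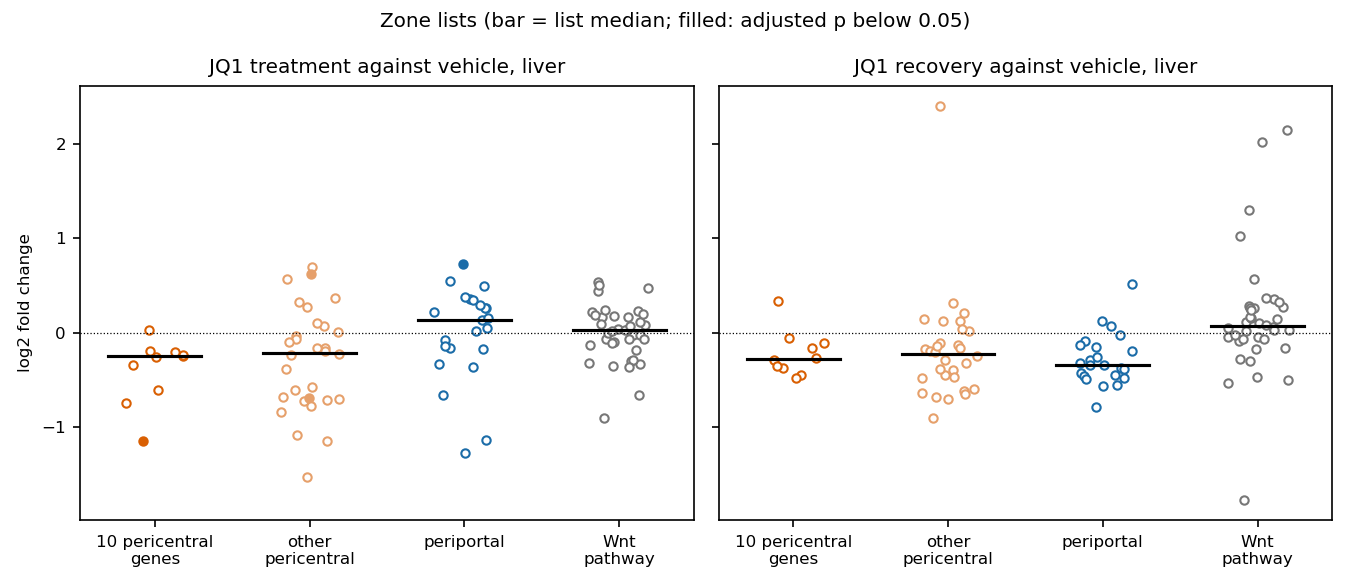
Log2 fold changes in liver of the 10 pericentral genes, the other pericentral, the periportal and the Wnt pathway genes tested, for JQ1 treatment (left) and JQ1 recovery (right) against vehicle; each point is 1 gene, bars are list medians, and filled points have an adjusted p below 0.05. Under treatment the pericentral medians lie at -0.25 and -0.21 and the periportal one at 0.14; under recovery all 3 lie below 0 and no point is filled, in a fit that includes R replicates 2 and 3.

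After 6 weeks without drug, 0 of the 10 genes were called against control by edgeR, the unadjusted p was below 0.05 for 2 (Rgn and Lect2), and 1, Rgn, was called by DESeq2 (-0.48, adjusted p = 0.0366). Over all genes edgeR called 5 of 14559, 0.0343%, and 2430 had an unadjusted p below 0.05. DESeq2 called 662 genes over all. The median log2 fold change of the 10 was -0.27, against 0.02 over all genes. Every R library lay below every control for 2 of 10, Glul and Rgn, set against 6.13% of all genes. On CPM without TMM factors and in deposited TPM this held for Rgn and not for Glul. This comparison and that of treatment share their controls, and the 3 R libraries did not resemble each other.

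R replicate 1, the library with little kidney RNA, was close to control. For 7 of 10 genes it lay within the range of the 4 controls, and its median over the 10 was 96.6% of the control mean. Lect2 stood at 58.8 CPM there (96.3% of the control mean) and Gulo at 465.8 CPM (97.0%). The 3 genes outside the range were Glul (492.5 CPM, 93.8%), Rgn (448.3 CPM, 88.6%) and, above it, Rhbg (12.7 CPM, 117.2%).

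R replicate 2 was low for most of the genes. It lay below all controls for 7 of 10, with a median of 62.7% of the control mean. Tbx3 (12.9 CPM, 43.8%), Gulo (240.0 CPM, 50.0%), Rgn (275.4 CPM, 54.4%) and Lect2 (34.8 CPM, 57.0%) were lowest, while Oat (117.7 CPM, 96.0%) and Axin2 (2.90 CPM, 98.3%) were within the control range and Rhbg (12.6 CPM, 115.9%) above it. R replicate 3 lay between, with 4 of 10 below the control range and a median of 88.2%. There Rgn (370.0 CPM, 73.1%), Lect2 (48.5 CPM, 79.3%) and Gulo (419.9 CPM, 87.4%) were low, and Rhbg was highest of all liver libraries at 15.8 CPM (145.7%). These percentages depend on the scaling, since the TMM factor was 1.25 in R replicate 2 and 0.917 to 1.06 in the other liver libraries. Without the factors the medians over the 10 genes were 99.4%, 79.4% and 94.9% in R replicates 1, 2 and 3, with 1, 6 and 2 genes below the control range, and in deposited TPM they were 93.2%, 80.8% and 83.6%, with 1, 5 and 2 below. Tbx3, Gulo, Rgn, Lect2 and Glul were below the control range in R replicate 2 on all 3 scales, and Rhbg was above it. Both added scales were chosen after the data were seen.

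The sum of the 10 hepatocyte genes was 28908 CPM in R replicate 2, 56913 CPM in R replicate 3 and 65206 CPM in R replicate 1. Markers of bile duct cells, summed over 6 genes, stood at 100.5 CPM in R replicate 2 and 60.7 CPM in R replicate 3. All 6 also passed the filter on low counts in kidney, so their sum is not particular to bile duct cells. R replicate 1, at 46.8 CPM, was close to the VC-R liver at 45.7 CPM, while the VC-T livers were at 24.4 to 29.1 CPM. The part of kidney RNA in the recovery values was not tested.

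**Figure D4:**
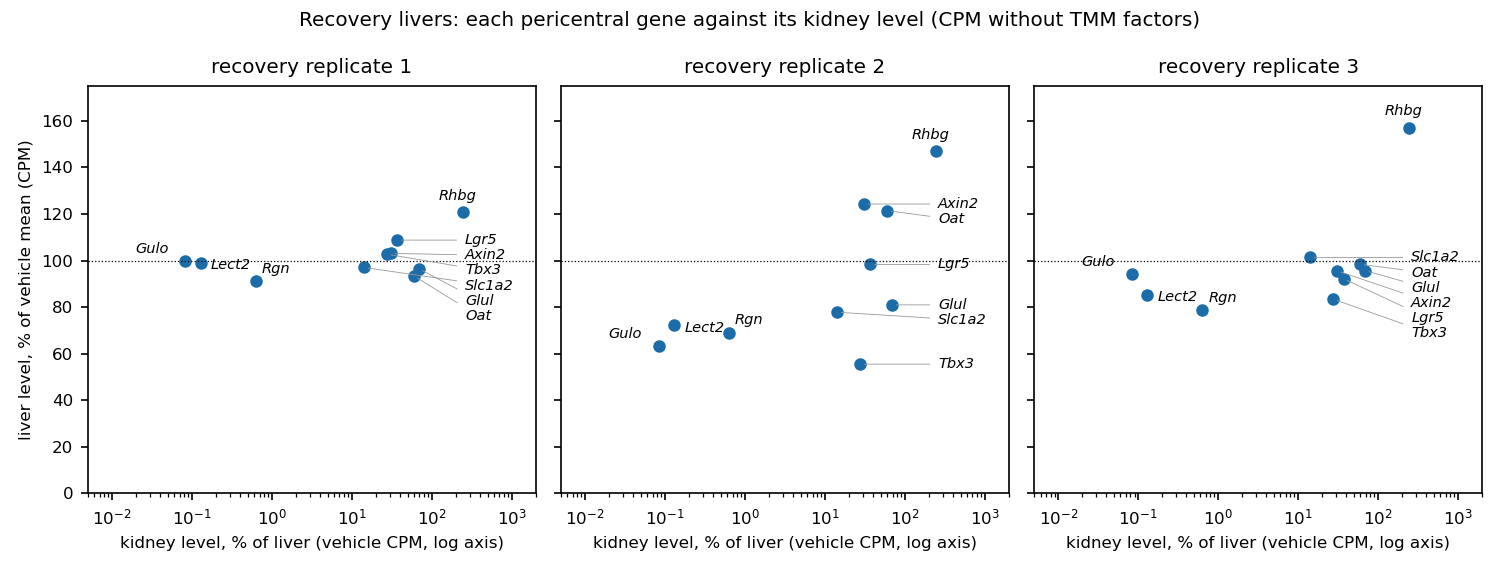
Level of each pericentral gene in R replicates 1, 2 and 3 as percent of the liver control mean (vertical axis) against its control level in kidney as percent of that in liver (log horizontal axis), both as CPM without TMM factors; each point is 1 gene and the dotted line is the control mean. In R replicate 1 the points lie between 91.3% and 120.7%, and in R replicate 2 they spread from 55.5% for Tbx3 to 147.1% for Rhbg.

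The fitted values for recovery follow these libraries. Rgn was at -0.47 ± 0.14 (adjusted p = 0.146), Tbx3 at -0.44 ± 0.26 (adjusted p = 0.435), Lect2 at -0.37 ± 0.15 (adjusted p = 0.246), Gulo at -0.36 ± 0.18 (adjusted p = 0.334) and Glul at -0.28 ± 0.13 (adjusted p = 0.305). Rhbg was at 0.34 ± 0.16 (adjusted p = 0.303). Without R replicate 1, which leaves the 2 libraries with kidney RNA, Lect2 (-0.57, adjusted p = 0.0150), Gulo (-0.56, adjusted p = 0.0438) and Rgn (-0.67, adjusted p = 0.00300) were called lower. Over all genes that fit called 2107, against 5 with all libraries. Without R replicates 2 and 3, 0 of the 10 were called, and the recovery group was then 1 library whose spread is assumed to be that of the other groups.

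Set directly against each other, T livers were lower than R livers in Rhbg (-1.08 ± 0.18, adjusted p = 0.0106) and Lect2 (-0.77 ± 0.17, adjusted p = 0.0295). Over all genes 334 were called, 2.29%, of which 144 were lower in T, 0.989%. For both genes every T library lay below every R library, including R replicate 1. Without R replicates 2 and 3, the recovery group was 1 library. The log2 fold changes were then -1.09 for Lect2, -0.98 for Rhbg and -0.56 for Gulo. Both calls were lost without R replicate 3, T replicate 1 or T replicate 3, where the adjusted p was 0.104, 0.144 and 0.149 for Lect2 and 0.0596, 0.0565 and 0.0636 for Rhbg. That of Lect2 was also lost without T replicate 2 (adjusted p = 0.114) or VC-T replicate 3 (adjusted p = 0.0539).

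Kidney was the organ in which the same genes could be followed without their liver zone. Gulo and Lect2 were too low to be tested there, at no more than 0.750 CPM in control kidneys. At the end of dosing 709 of 17158 kidney genes were called, 4.13%, and 1 of the 8 genes tested. Slc1a2 fell to 3.20, 3.36 and 5.77 CPM in T from 5.52 to 7.88 CPM in controls (-0.75 ± 0.20, adjusted p = 0.0465). The groups overlapped, and the call was lost in 12 of 17 alternatives, 8 of which left out a single library (R replicates 1, 2 and 3, VC-R, T replicates 1 and 2, and VC-T replicates 2 and 3), with adjusted p from 0.0677 to 0.169 in those.

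Glul in kidney was at 392.1, 415.4 and 460.3 CPM in T and 309.8 to 384.6 CPM in controls. On this scale all T kidneys were above all controls, opposite to liver. In deposited TPM the T kidneys (100.5 to 122.6) overlapped with the control kidneys (89.4 to 113.0), as Glul also did in liver. The log2 fold change of 0.29 ± 0.08 in kidney missed the threshold (adjusted p = 0.0552). It passed in 6 of 17 alternatives, by DESeq2 (0.30, adjusted p = 0.0170), with DESeq2 size factors (adjusted p = 0.0446), with no filter (adjusted p = 0.00951), against VC-T alone (adjusted p = 0.0180), without VC-R (adjusted p = 0.0185) and without T replicate 1 (adjusted p = 0.0424). Rhbg, which was low in T livers, was at 25.2 ± 3.4 CPM in T kidneys and 25.5 ± 2.0 CPM in control kidneys (-0.01 ± 0.11, adjusted p = 0.976). After recovery 1 kidney gene was called over all (0.00583%), 0 of the 8 by edgeR or DESeq2, and 1, Tbx3, had an unadjusted p below 0.05 (-0.57 ± 0.19, adjusted p = 0.361).

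Across the 8 liver libraries without R replicates 2 and 3, the 3 genes with the largest treatment differences also varied most alike. Pearson's r of log2 levels was 0.98 between Lect2 and Gulo, 0.94 between Lect2 and Rhbg and 0.93 between Rhbg and Gulo. These points share the treatment groups, so r describes the group difference as well as the libraries. Of the 45 pairs among the 10 genes 39 were above 0, with a median of 0.50 and a range of -0.31 to 0.98. Of 8843 genes ranked by r with Glul, the most alike were Arrdc3 (0.97), Gstz1 (0.96), Dpp4 (0.96), Apoc4 (0.96) and Slc20a2 (0.95). Within the pericentral genes Gulo came closest to Glul, at rank 195 (0.79), before Lect2 at rank 266 (0.76) and Rhbg at rank 294 (0.75).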

How the data were processed

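Polyadenylated RNA of 10 liver and 10 kidney libraries was sequenced as single-end reads. The submitters' processing notes name fastp 0.20.1, for trimming, and Salmon 1.10.0, for quantification, as the methods also do. The deposited files hold the estimated counts and TPM of 147833 transcripts, both as Salmon gave them to the authors. Salmon divides reads shared by several transcripts, so near-identical genes are uncertain. Estimated counts were summed per gene, rounded and tested in 1 fit per organ of 3 groups (edgeR 4.0.16, R 4.3.3, TMM, robust quasi-likelihood F-test, two-sided, filterByExpr with a minimum count of 10 and total of 15), with Benjamini-Hochberg adjustment over all genes tested (14559 in liver, 17158 in kidney) and calls at an adjusted p below 0.05. CPM carry the TMM factors, except for kidney markers, which compare organs, and where stated.

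The genes named from other lists were those called (at most the 8 of lowest adjusted p per list) and a fixed set including Cyp2e1, Cps1 and Rspo3. Those called in alternative fits were added after their values were seen. The 10 genes and all lists were chosen with earlier results of these data known. Alternatives used DESeq2 1.42.0, other filters, counts, controls and libraries. The scripts were tested on simulated data. The values of 1 gene called in another list are not reported here.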

Additional observations from a re-analysis of the deposited data

Results flagged for a closer look

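Of 20 groups of 4 control libraries (10 genes in each organ), 2 held a library far from the other 3, where chance gives about 1 in 20. In liver the highest control value of Glul, 562.4 CPM in VC-T replicate 2, stood above 508.8 to 514.8 CPM in the others. In kidney the highest control value of Tbx3 was 10.1 CPM, in VC-R, against 6.71 to 7.11 CPM in VC-T. The treatment effect on Glul ran opposite ways in the organs. In CPM with TMM factors every T library was below every control in liver (-0.20) and above every control in kidney (0.29). In deposited TPM the groups overlapped in both organs. Neither effect passed its test with all libraries, the kidney effect passed in 6 of 17 alternatives, and the difference between organs was not tested.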

How the results depend on the processing

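In liver treatment against control, 72 genes were called with all libraries, 284 by DESeq2, 128 with no filter on low counts, 37 with length-scaled counts, 41 with the replicate block, 368 with the groups compared alone, 29 with controls of the same time, 358 without R replicates 2 and 3, and 15 to 271 leaving out 1 library. Of the 10 pericentral genes 1 was called, 2 by DESeq2 and with no filter, 3 with the groups compared alone and without R replicates 2 and 3, and 0 to 3 leaving out 1 library. In recovery against control 5 genes became 662, 226, 2, 2, 1, 1 and 1 under the same 7 alternatives and 0 to 2107 leaving out 1 library. The most, 2107, came without R replicate 1. Pericentral genes called there were 0, then 1 by DESeq2 and with no filter, and 0 to 3. In treatment against recovery 334 genes became 1158 (DESeq2), 609 (no filter), 165 (length-scaled), 222 (replicate block), 33 (groups alone), 138 (without R replicates 2 and 3) and 17 to 2154, and the 2 pericentral calls became 1 with length-scaled counts, 1 with the replicate block, 0 with the groups alone and 0 to 3. In kidney treatment 709 genes became 1084 with no filter, 432 with length-scaled counts, 459 with the groups alone and 411 to 756, and the 1 pericentral call became 2 with DESeq2 size factors, DESeq2 and no filter, 0 with length-scaled counts, the replicate block and the groups alone, and 0 to 1. In kidney recovery 1 gene became 103 (DESeq2), 182 (no filter), 0 (length-scaled), 0 (replicate block), 13 (groups alone) and 0 to 240. The cause of these shifts was not tested.

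Within an organ, replicate numbers showed no clear pairing of libraries between groups, and with few libraries a weak pairing could be missed. Liver and kidney libraries of the same number were not compared. Deviations of same-numbered libraries correlated at -0.09 to 0.01 in liver (0 of 9 pairs above 0.1) and -0.20 to 0.17 in kidney (1 of 9), and 2 of 18 liver and 5 of 18 kidney matches were best with their own number. The block took the calls of Lect2 in treatment against recovery (adjusted p = 0.0586) and Slc1a2 in kidney (adjusted p = 0.0512).

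Signs turned for genes that were not called. In liver treatment Oat ran from -0.14 to 0.16 leaving out 1 library. In liver recovery Oat ran from -0.20 to 0.0001 and Axin2 from -0.22 to 0.14 likewise, with Axin2 at 0.54 against VC-R alone and 0.011 without R replicates 2 and 3, and Lgr5 at 0.039 with length-scaled counts and 0.076 without R replicates 2 and 3. In treatment against recovery, without R replicates 2 and 3, Glul was at -0.11, Slc1a2 at -0.17, Tbx3 at -0.34 and Rgn at -0.021, and Slc1a2 at -0.043 with length-scaled counts. Leaving out 1 library there gave -0.074 to 0.21 for Glul, -0.019 to 0.28 for Oat, -0.16 to 0.14 for Slc1a2, -0.17 to 0.40 for Tbx3 and -0.18 to 0.070 for Lgr5. In kidney treatment it gave -0.091 to 0.17 for Tbx3 and -0.13 to 0.062 for Rhbg, and in kidney recovery -0.045 to 0.11 for Slc1a2, -0.66 to 0.020 for Axin2 and -0.67 to 0.018 for Lgr5. Kidney recovery against VC-R alone gave -0.049 for Glul, 0.036 for Oat and -0.028 for Slc1a2, and length-scaled counts -0.20 for Slc1a2. Axin2 and Lgr5 had the fewest reads.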
